A study of Mus musculus with 3 samples.

Results

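MYC and 34 genes of the nucleolar ribosome factory were followed across 3 microarrays of a mouse T-lymphoma cell line. The genes were listed by name for their function, with no measured value in the rule, although earlier results of these data were known when the list was made: MYC, the polyamine and pyrimidine genes Odc1 and Cad, RNA polymerase I subunits, and nucleolar proteins that process ribosomal RNA. All 35 listed genes had at least 1 probe set assigned to that gene alone, out of 18193 genes with such a probe set on the array, and the probe set with the highest mean signal represented each gene. The cells were WR19L, a T-lymphoma line from BALB/c mice. One array was made from parental WR19L cells, one from flippase-deficient WR19L cells (DKO) carrying a stably expressed wild-type human ATP11A, and one from DKO cells carrying the Q84E mutant of ATP11A instead. ATP11A is a P4-ATPase, a flippase of the plasma membrane. All 3 were grown in RPMI1640 with 10% FCS and left untreated. The labels name neither the genes deleted in DKO cells, the promoter of the transgene, nor whether a line is 1 clone. DKO cells without a transgene were not analysed here, so knockout, transgene and derivation of the line cannot be told apart in any comparison with parental cells. Each group was 1 array, so no value has a replicate, no SD or test between groups could be had, and the number of arrays limits the precision.

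Ribosomes are assembled in the nucleolus. RNA polymerase I transcribes a long precursor RNA there, snoRNPs modify it at guided positions, the small subunit processome cleaves and folds the part that becomes the 40S subunit, and further factors such as the PeBoW complex mature the 60S subunit. MYC is a transcription factor that drives growth and proliferation, pairs with MAX on E-box DNA, and is known to raise the expression of many of these factors, also in lymphoma cells.

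The deposited value is a MAS5 signal, the brightness of a probe set on a linear scale. The signals had been scaled to a 2% trimmed mean of 500.0 on every array. All 35 genes had a mean level above the 75th percentile of their arrays, a signal of 369 to 392, and 30 of them were above the 90th, a signal of 1758 to 1774. These genes were therefore read against the 6624 genes above the 75th percentile and the 2796 above the 90th. To gauge the error, the log2 ratios of paired probe sets of 1 gene were compared, and their disagreement was expressed as an SD per probe set. It was 0.097 to 0.107 above the 90th percentile and 0.174 to 0.192 between the 75th and 90th. Differences between cultures are not in that error. Of 12 measured T cell markers, 8 were above the 75th percentile on every array, among them Cd3d, Cd3g, Lat and Thy1, while Cd3e, Cd4 and Cd5 lay under the median signal on all 3. None of 25 measured markers of B, myeloid, natural killer, erythroid, epithelial and fibroblast cells reached the 75th percentile on all 3 arrays. The summed signal of the T cell markers was 37974 on the parental, 32959 on the wild-type ATP11A and 38033 on the Q84E array, and its part in the results was not tested. The 3′ to 5′ signal ratio, a sign of RNA integrity, was 0.720 to 0.724 for the Gapdh controls and 1.24 to 1.27 for the beta-actin controls. Mouse Atp11a gave a signal of 478 in parental cells, of 253 with the wild-type transgene and of 244 with Q84E, which checks neither the edit nor the transgene, since the position of these mouse probes relative to the edit is unknown.

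In Q84E cells the ribosome biogenesis genes were lower, by small steps, than in wild-type ATP11A cells. A lower signal was found for 31 of the 35 genes, with a median log2 ratio of -0.17 and a range of -0.36 to 0.18. Among genes above the 75th percentile 48.1% were lower, with a median of 0.0073, and among those above the 90th 57.2%, with a median of -0.027. Over all 10211 genes compared with a measurable direction the share was 44.5%, with a median of 0.030. With quantile normalization 27 of the 35 were lower, against 49.7% of genes above the 75th percentile, and with a common median on each array 34, against 75%. The differences were smaller than the usual limits. At least 1.2-fold lower levels were found for 3 genes, Ddx21, Wdr75 and Utp20, against a background of 6.73% above the 75th percentile and 5.47% above the 90th, and no gene was at least 1.2-fold higher (background 11.5%). The first count depended on the scaling, as did its background above the 75th percentile: it was 18 genes against 21.9% with a common median and 13 genes against 13.1% with a common 75th percentile. At 1.1-fold, a limit chosen after the values were seen, 18 of 35 genes were lower and 1 higher, against 19.9% and 24.9% above the 75th percentile, and 21.6% and 14.5% above the 90th. None of the 35 differed by 2-fold, as did 0.0755% (lower) and 0.196% (higher) of genes above the 75th percentile. In bulk RNA, fewer cells with a gene switched on and less of its RNA per cell cannot be told apart, and equal RNA input with scaling shows changes relative to other transcripts only.

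**Figure D1:**
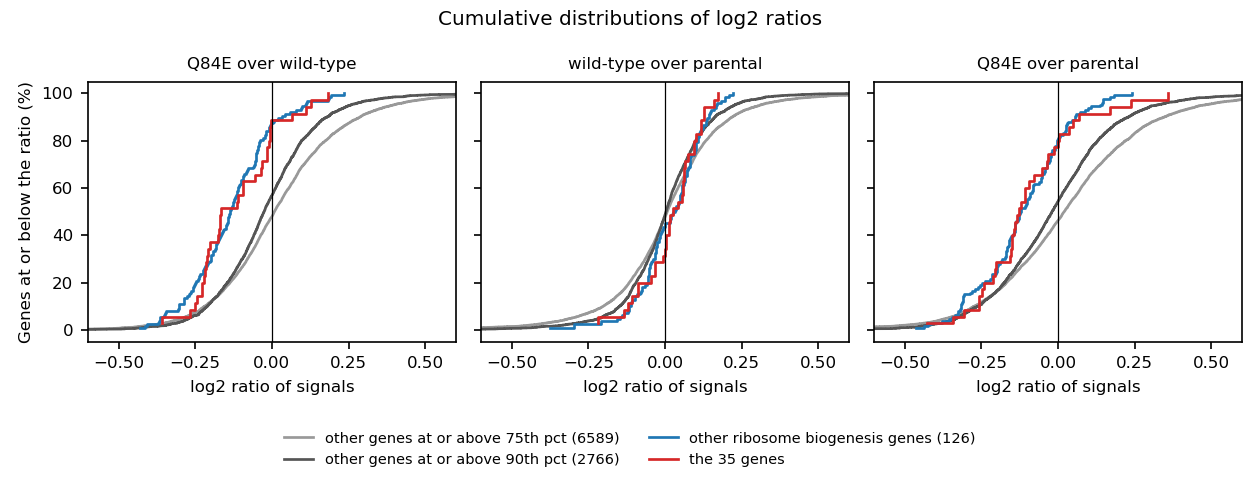
Cumulative percentage of genes (vertical axis) against the log2 ratio of signals (horizontal axis, cut at -0.6 and 0.6) for each pair of arrays; grey lines are the other genes above the 75th and 90th percentile, blue the 126 other ribosome biogenesis genes from 4 lists, red the 35 genes. In Q84E over wild-type the red line reaches 31 of 35 genes at a ratio of 0. In wild-type over parental it reaches 11 of 35 there, against 47.6% of the other genes above the 75th percentile.

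Myc itself was not among the lower genes. The Myc signal was 6131 in parental, 6318 in wild-type ATP11A and 6896 in Q84E cells. The Q84E array was thus the high one, with a log2 ratio over wild-type of 0.13, 1.3 times the probe set error of 0.098, and with each array set to a common median this turned to -0.011. Myc has 1 probe set here, so no second one could be set beside it. Odc1 encodes ornithine decarboxylase, which starts polyamine synthesis and is a classical MYC target. Its signal was 20085, 18304 and 16220 in the same order, lowest in Q84E cells, with a log2 ratio of -0.17 over wild-type and -0.31 over parental. All 3 Odc1 probe sets were lower in Q84E than in wild-type cells, at -0.17, -0.32 and -0.29. Cad, the enzyme that starts pyrimidine synthesis, had signals of 3525, 3851 and 3611, so its wild-type array was the high one. Its second bright probe set had a ratio of 0.040 for Q84E over wild-type against -0.093 for the brightest, both within 1 probe set error of 0.

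Of 5 genes of RNA polymerase I and its helpers, 4 were lower in Q84E than in wild-type ATP11A cells, but the median log2 ratio was -0.0065 and only Polr1b lay beyond the error. With quantile normalization 3 of 5 were lower. Polr1b, the second largest catalytic subunit, had signals of 1269, 1376 and 1162, with a log2 ratio of -0.24 for Q84E over wild-type, 1.4 times the error of 0.174 at that brightness. Polr1a, the largest subunit, had 1191, 1185 and 1181, which is flat across the arrays at a ratio of -0.0050. Polr1c, an assembly subunit shared with RNA polymerase III, had 3551, 3437 and 3363 and a ratio of -0.031, while its other probe set gave -0.20. Tcof1, or treacle, which promotes transcription of ribosomal DNA, was one of the 4 genes on the higher side. Its signals were 1184, 1292 and 1397, a ratio of 0.11 that is under the error, and its other probe sets gave 0.032 and -0.019. Mybbp1a, a nucleolar MYB-binding protein, had 10612, 9977 and 9932 and a ratio of -0.0065.

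Among the snoRNP proteins, 7 of 8 were lower in Q84E than in wild-type ATP11A cells, at a median of -0.065, or 5 of 8 with quantile normalization. Only Nolc1, Rrp9, Nhp2 and, on the higher side, Fbl lay beyond the error of 0.098. Nolc1, or Nopp140, a chaperone of snoRNPs, was the furthest, with signals of 9888, 10416 and 8899 and a log2 ratio of -0.23. Its other probe sets gave -0.22 and -0.18, so all 3 were lower. Rrp9, which binds the U3 snoRNA, had 2025, 2116 and 1839, a ratio of -0.20. The core proteins lay closer to 0. Nhp2, Gar1 and the pseudouridine synthase Dkc1 are box H/ACA proteins, which guide pseudouridylation. Nhp2 had signals of 18143, 18970 and 17514, a ratio of -0.12, with its other probe set at -0.22. Gar1 had 6628, 6692 and 6621, a ratio of -0.015, and Dkc1 had 12329, 12829 and 12749, a ratio of -0.0090, so both were flat between the DKO lines. Nop56 and Nop58 are core proteins of the box C/D particle, which guides methylation. Nop56 had 9497, 10620 and 9952, highest with wild-type ATP11A, and Nop58 had 9996, 10004 and 9760, a ratio of -0.036. Fbl, or fibrillarin, the methyltransferase of the box C/D particle, was on the other side, with signals of 15469, 17457 and 19818 and a ratio of 0.18. The probe set behind it has the suffix that marks a match to several transcripts. The main probe sets of Nhp2, Gar1, Polr1c, Cad and Tcof1 have the same suffix. The second Fbl probe set gave 13161, 13283 and 13058, a ratio of -0.025, so the direction for Fbl rests on 1 probe set.

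The small subunit processome held some of the largest differences, with 5 of 6 genes lower and a median log2 ratio of -0.24 for Q84E over wild-type. Wdr75, the homologue of yeast UTP17, had signals of 6211, 6657 and 5190, which is 1.28-fold lower in Q84E than in wild-type cells. Its log2 ratio of -0.36 is 3.7 times the error, while a dimmer probe set gave -0.079. Utp20 had 2202, 2287 and 1902, a ratio of -0.27. Nop14 had 1723, 1840 and 1546, a ratio of -0.25. In these 3 genes the Q84E array was the low one and the parental array lay between the others. Wdr43, the homologue of UTP5, had 6483, 6775 and 6014, a ratio of -0.17 with a second bright probe set at -0.22. Rrp12, which acts in maturation and export of the 40S precursor, had 902, 830 and 711, with the parental array highest. Heatr1, the homologue of UTP10, was the exception. Its signals were 3230, 2778 and 2909, lowest with wild-type ATP11A, and its ratio of 0.067 turned to -0.070 with a common median.

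All 10 genes of large subunit maturation were lower in Q84E than in wild-type ATP11A cells, at a median log2 ratio of -0.19, and 8 were at least 1.1-fold lower. With quantile normalization 9 of 10 were lower. The PeBoW complex has 3 subunits, and 2 of them were lower by more than the error. Pes1, or pescadillo, had signals of 4343, 3732 and 3225, a stepwise order with a ratio of -0.21 over wild-type and -0.43 over parental, 4.0 times the error of 0.107. Wdr12 had 5388, 5399 and 4678, a ratio of -0.21 over wild-type and -0.20 over parental, so only the Q84E array was low. Bop1, the third subunit, had 4224, 3920 and 3881 and a ratio of -0.015 over wild-type, which turned to 0.010 with quantile normalization. Nop16, an assembly factor, had 3876, 4137 and 3529, a ratio of -0.23. Rrs1, which helps to place the 5S particle, had 7820, 7889 and 6775, a ratio of -0.22, and Rrp1b had 2454, 2401 and 2067, also -0.22. All 3 Rrp1b probe sets and both Rrs1 probe sets were lower in Q84E than in wild-type cells. Ddx18, a DEAD-box helicase, had 6774, 6897 and 6132, a ratio of -0.17. Ebna1bp2, the homologue of yeast EBP2, had 7402, 6960 and 6195, with the parental array highest, and the same ratio. Nop2, a cytosine methyltransferase of ribosomal RNA, was also at -0.17, with signals of 3773, 3813 and 3400. Gnl3, or nucleostemin, a GTPase of the nucleolus, had 8051, 8384 and 8065, a ratio of -0.056 that is within the error.

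Ddx21 was, with Wdr75, the furthest of the 35 genes in Q84E over wild-type. It encodes a DEAD-box helicase that acts in ribosomal DNA transcription and precursor processing. Its signals were 3646, 3957 and 3086, so the Q84E array was lowest and the wild-type array highest, and the log2 ratio was -0.36. The second Ddx21 probe set gave 3523, 3479 and 3115, a smaller ratio of -0.16. Ncl, or nucleolin, an abundant RNA-binding protein of the nucleolus, had 34517, 34618 and 32038, a ratio of -0.11. Its other 3 bright probe sets were all lower too, at -0.24, -0.20 and -0.44. Npm1, or nucleophosmin, a chaperone that scaffolds the nucleolus, had 33329, 32574 and 32499, which is flat at -0.0033. The top probe sets of Ncl and Npm1 lay near the top of the scale, where the highest signals of any probe set were 41467 to 44663.

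**Figure D2:**
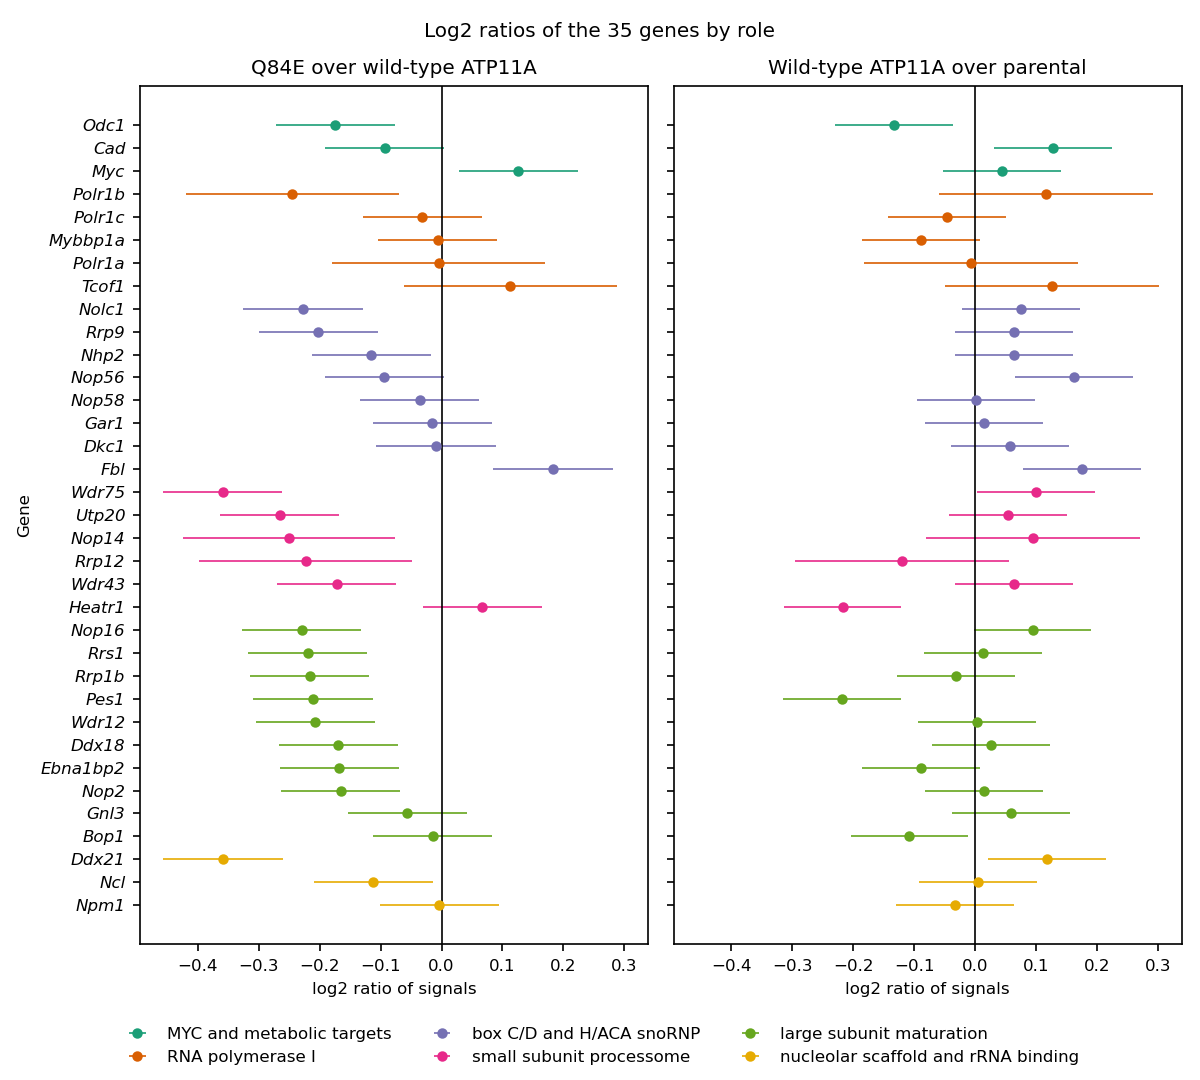
Log2 ratio of signals (horizontal axis) for each of the 35 genes (vertical axis), coloured by role; bars are 1 SD of the probe set error at that brightness, not a spread between replicates. In Q84E over wild-type all 10 large subunit genes lie left of 0 (Bop1 turns with quantile normalization), while Myc, Fbl, Tcof1 and Heatr1 lie right of it (Myc, Tcof1 and Heatr1 turn with a common median).

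Other probe sets of the same genes gave a second reading of the same RNA. Of 61 bright probe sets of the 35 genes, 53 were lower in Q84E than in wild-type cells, at a median of -0.17. Of the 26 that had not been used as the main one, 22 were lower, again with a median of -0.17. In 13 of 18 genes with several bright probe sets, every one was lower, and in 0 every one was higher. No share over all bright probe sets of the array was computed to set beside these counts. By gene, 48.1% of those above the 75th percentile were lower, and 57.2% of those above the 90th. The 15 dim probe sets were split, 7 lower and 8 higher, with ratios from -2.98 to 1.86. These probe sets share the array and its scaling, so they check the probes and not the culture.

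**Figure D3:**
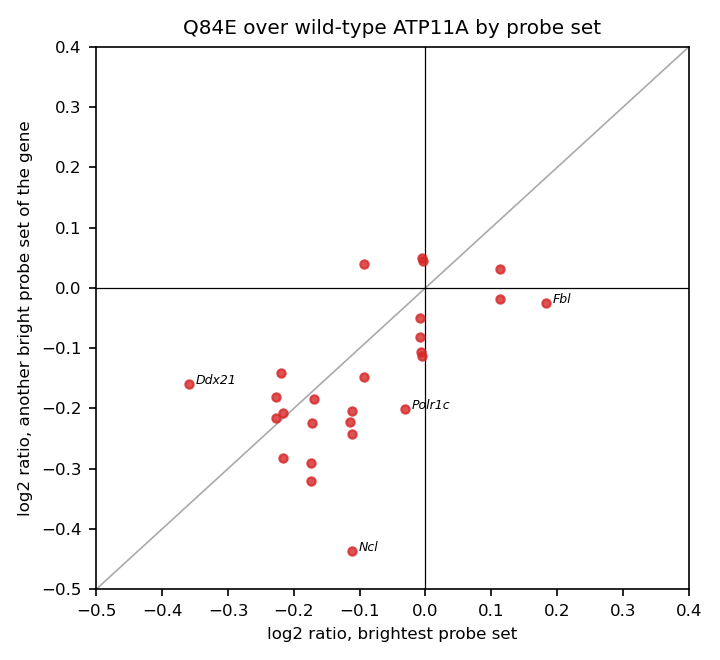
Log2 ratio of Q84E over wild-type for the brightest probe set of a gene (horizontal axis) against each further bright probe set of that gene (vertical axis), for 26 probe sets of 18 genes; the grey line marks equal ratios. Most points, 22 of 26, lie below 0 on the vertical axis, and the labelled genes (Ddx21, Fbl, Ncl and Polr1c) have a probe set more than 0.15 from the main one.

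Wild-type ATP11A cells set against parental cells gave another picture. Lower levels were found for 11 of 35 genes and higher levels for 24, at a median log2 ratio of 0.026, against 47.5% lower above the 75th percentile and 47.0% over all genes compared. With a common 75th percentile 17 were lower, against 52.4%. The range was -0.22 to 0.17 and no gene was past 1.2-fold in either direction (background 6.63% lower and 6.91% higher above the 75th percentile). All 8 snoRNP genes were above 0 in the deposited scaling, led by Fbl at 0.17 and Nop56 at 0.16, but 1 of 8 was lower with quantile normalization or a common median and 2 with a common 75th percentile, while Pes1 and Heatr1 were lowest, both at -0.22. In Q84E over parental, 28 of 35 genes were lower (background 46.5% above the 75th percentile and 54.7% above the 90th), at a median of -0.13. With a common median 32 were lower, against 70.8% above the 75th percentile. At least 1.2-fold lower levels were found for Pes1, Rrp12 and Odc1 (background 10.7%), or for 19 genes with a common median (background 27.1%), and Fbl was 1.28-fold higher by its brightest probe set (background 15.5%). These comparisons share arrays, so the third follows from the other two and is not separate evidence. Ordered by array, the Q84E array was the lowest of the 3 for 27 of 35 genes, against 35.7% of genes above the 75th percentile and 44.7% above the 90th. The wild-type ATP11A array was the highest for 21 genes, against 27.0% and 30.7%.

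**Figure D4:**
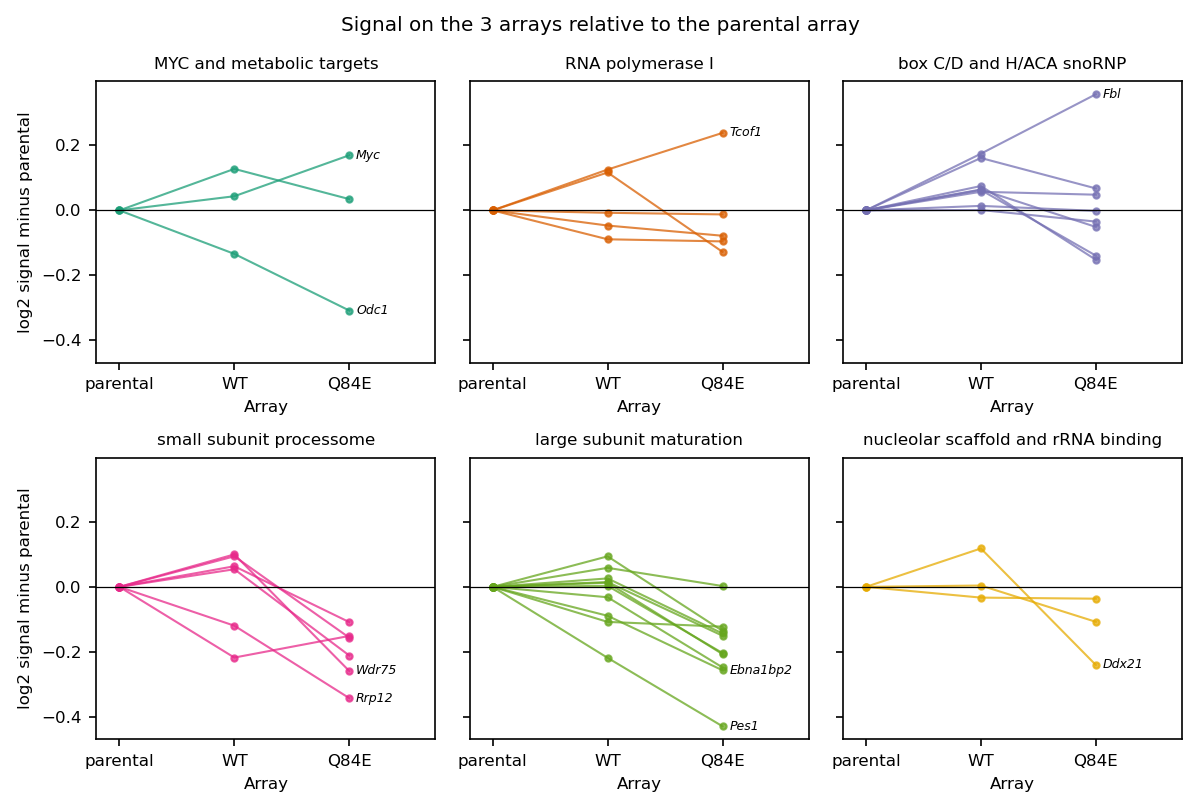
Log2 signal minus that of the parental array (vertical axis) on the parental, wild-type ATP11A (WT) and Q84E arrays, 1 line per gene, in a panel for each role; there is 1 array per group and no error bar. The small and large subunit genes lie at or below 0.0026 on the Q84E array, and Fbl and Tcof1 are the highest there.

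Promoter sequence was set beside these values because MYC and MAX bind the E-box, whose letters are CACGTG on both strands. RefSeq promoter windows of assembly GRCm38.p6, with 250 bases before and 50 after a gene's start, were found for 28 of the 35 genes. CACGTG was present in 5 of them, 17.9%, against 8.09% of 27025 genes and 13.0% of the 5500 genes above the 75th percentile that had a window. The related CACGCG, searched on both strands, was present in 8, 28.6%, against 10.5% and 22.6%. The E-box sites, with the motif in capitals and 5′ to 3′ on the gene's strand, show how differently they are placed. That of Nop2 starts 60 bases before the gene's start (chr6:125131811-125131840, plus strand). The others lie just past the start, in Pes1 (chr11:3963965-3963994, plus), Wdr43 (chr17:71616220-71616249, plus), Utp20 (chr10:88826765-88826794, minus) and Mybbp1a (chr11:72441347-72441376, plus).
Nop2: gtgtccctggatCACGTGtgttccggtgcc
Pes1: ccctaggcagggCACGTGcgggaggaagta
Wdr43: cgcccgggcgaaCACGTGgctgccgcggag
Utp20: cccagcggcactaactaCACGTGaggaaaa
Mybbp1a: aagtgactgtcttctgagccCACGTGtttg
A CACGCG of Ddx21 (chr10:62602249-62602278, minus) and one of Nolc1, read from the opposite strand as CGCGTG (chr19:46075810-46075839, plus), are shown since both genes were among the lower ones.
Ddx21: tgtcgccctctctcctagCACGCGgttgag
Nolc1: gcaggatgatgaCGCGTGtgggaccggaag
The log2 ratio for Q84E over wild-type had a median of -0.17 in the 5 genes with CACGTG and -0.17 in the 23 without it. It was -0.19 in the 8 genes with CACGCG and -0.17 in the 20 without. A match of letters is not a bound site.

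The wider pathway was read from lists of further genes. In 4 lists of other ribosome biogenesis genes, 126 genes were measured, 124 of them above the 75th percentile. In Q84E, 110 were lower than in wild-type cells, with a median of -0.14, against 48.1% of genes above that percentile. With quantile normalization 104 were lower, against 49.7%. At least 1.2-fold lower in the deposited scaling were 21 of the 126, and 0 were 1.2-fold higher. The background was 6.73% and 11.5% above the 75th percentile, and 10.4% and 20.0% over all genes compared. The share of 48.1% also goes beside the counts of the single lists below. Above the 90th percentile, where 84 of the 126 lay, that share was 57.2%. In the list of other small subunit processome genes, 47 of 49 were lower, at a median of -0.14. The lowest were Bysl at -0.35, Pwp2 at -0.35 and Utp18 at -0.35, with Nol10 at 0.078 and Sart3 at 0.11 on the other side. Sart3 was in the list but encodes a splicing factor and not a processome protein. Of other large subunit genes, 39 of 46 were lower, at a median of -0.13, with Ddx31 at -0.43, Nip7 at -0.41 and Rsl24d1 at -0.37, while Las1l was at 0.24. In the list of other RNA polymerase I factors, which also held assembly factors of box C/D snoRNPs, 13 of 17 were lower. Polr1e was at -0.36 and the initiation factor Rrn3 at -0.28, while Ubtf, which keeps ribosomal genes open, was at 0.19. In the list of other snoRNP and assembly genes, 11 of 14 were lower. Lowest was Bud23 at -0.41, which encodes a methyltransferase of ribosomal RNA and not a snoRNP protein, followed by Shq1 at -0.37. Of the nuclear exosome, which trims precursor RNA, 11 of 14 were lower, at a median of -0.087, with Mphosph6 at -0.22 lowest and Exosc6 at 0.64 highest. As with the 35 genes, the wild-type over parental median of the 126 genes was near 0, at 0.029. The Q84E array was the lowest of the 3 for 96 of the 126, against 35.7% of genes above the 75th percentile and 44.7% above the 90th.

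Growth genes of MYC outside the nucleolus were split, with 26 of 49 lower and a median of -0.011. Of these, 45 lay above the 90th percentile, where 57.2% of genes were lower. The 3 lowest of the 49 belong to the pathways of Cad and Odc1. They were Umps at -0.45 and Dhodh at -0.28, both of pyrimidine synthesis, and Srm, spermidine synthase, at -0.21. At the dimmer signal of Dhodh the error is 0.174. A gene of folate metabolism followed at -0.21. A further gene of pyrimidine synthesis in the list, at 0.017, and one of polyamine regulation, at 0.0063, were flat, so the pathways did not move as a whole. Umps had signals of 4270, 4401 and 3218, so its Q84E array was the low one. In the MYC network, 6 of 15 genes were lower, against 44.5% of all genes compared. Max, the partner of MYC, had signals of 1631, 1803 and 1438, a log2 ratio of -0.33 for Q84E over wild-type. Mxd3 and Mxi1, which compete with MYC for MAX, were at 0.48 and 0.27, and the Mxd3 signals were 1284, 1499 and 2090. Mxd4, of the same family, was at -0.32 at a low signal. Mycn, a gene of the MYC family in the same list, was far brighter than Myc. Its signals were 33009, 32468 and 35103, a log2 ratio of 0.11 for Q84E over wild-type. Of genes described as repressed by MYC, 13 of 16 were higher, against 55.5% of all genes compared, at a median of 0.34 that was 0.21 with a common median. Ndrg1 was at 1.84, Ccng2 at 1.53 and Txnip at 0.87, while Gadd45b was at -0.74, Cdh13 at -0.26 and Klf2 at -0.018. Only 10 of the 16 lay above the 75th percentile. Between the 50th and 75th, where Ndrg1, Gadd45b, Cdh13 and Klf2 lay, the error is 0.31. In wild-type over parental, 11 of the 16 were higher too, at a median of 0.29. Several of these genes were known to be high in these data when the list was made, and they have other regulators, so their count is a description. In the list of p53 and nucleolar surveillance genes, 8 of 11 were higher in Q84E than in wild-type cells, at a median of 0.13. Over all genes compared 55.5% were higher. In wild-type over parental 8 of 11 were higher too, at a median of 0.15. Both counts include Mrpl23, which was in the list but encodes a mitochondrial ribosomal protein and not a surveillance factor. The Q84E over wild-type median is the ratio of Mrpl23 itself, and the list was not recounted without it. Cdkn2a was at 0.57 and Mdm2 at 0.55 for Q84E over wild-type, and Rps27l, at -0.085, was the lowest.

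**Figure D5:**
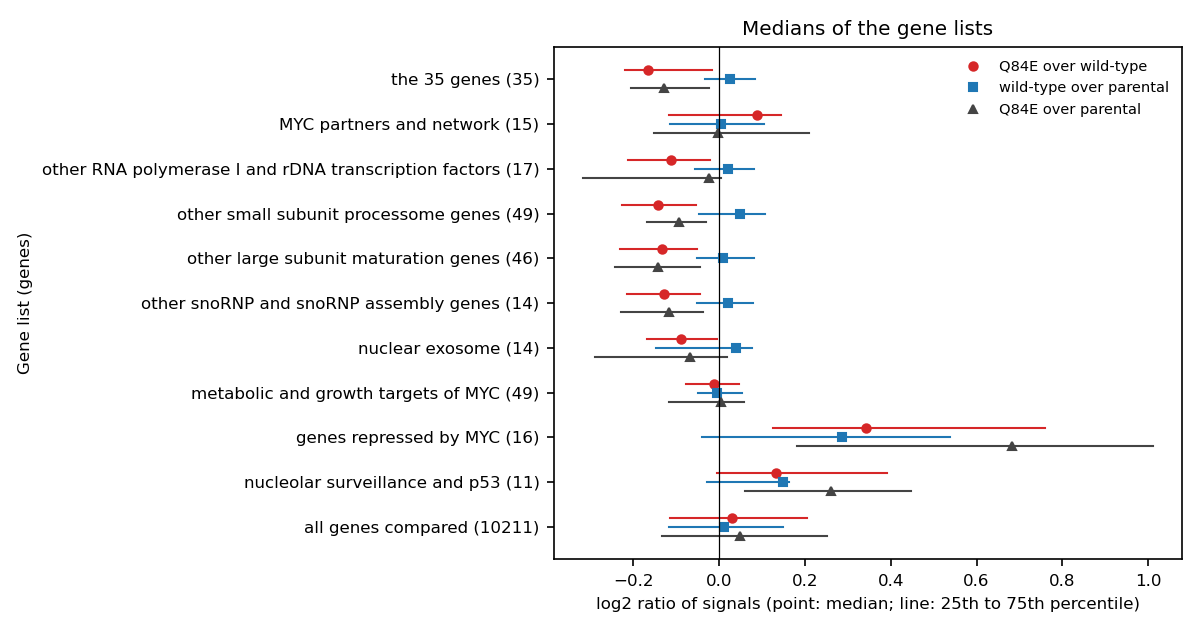
Median log2 ratio (points) and 25th to 75th percentile (lines) of each gene list (vertical axis, with the number of genes) for the 3 comparisons, which share arrays. The 35 genes and the 4 lists of other ribosome biogenesis genes have medians between -0.17 and -0.11 for Q84E over wild-type, against 0.030 for all genes compared.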

How the data were processed

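Per the submitters' processing notes, the authors computed the deposited intensity values with MAS5, as a linear signal for each of 45101 probe sets. For its version and the scanner, nothing is given in the sources used here. Per the labels' protocols, 250 ng of total RNA was amplified by in vitro transcription into biotinylated cRNA. Probe sets were named from the platform annotation: 34958 had exactly 1 symbol, 932 had several and 9211 were not listed, and these last were not named. Entrez identifiers matched 34754 to RefSeq. The deposited signals were turned into log2 levels, and levels under an array's 50th percentile were set to it. The 10237 genes compared had a mean level above that percentile. Genes where both levels were under the floor were left out of counts of direction. Control probe sets were left out. Python 3.11.15, numpy 2.4.6 and pandas 2.3.3 were used, and the steps were tested on simulated data. The 35 genes and all lists were chosen with earlier results of these data known, as was the rule for names: all 35 genes, and of each list no more than the 3 highest and 3 lowest. Mycn was named outside that rule, for its high signal, and Mrpl23, for its function outside its list. With 1 array per group no test was run.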

Additional observations from a re-analysis of the deposited data

How the results depend on the processing

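The alternatives were 3 other scalings, no floor, a floor at the 25th percentile and 3 other choices of probe sets. Of 237 values recomputed, 206 kept their direction and moved by less than the probe set error or, for counts, less than 1.5 times, 30 moved further and 1 reversed. The 2 floor settings could not change any value of the 35 genes, which lay above the floor on all 3 arrays. Those unchanged values are among the 206. The sign of the median of the 35 genes in each comparison held under the other settings. Medians of Q84E over wild-type ran from -0.30 with a common median to -0.12 with quantile normalization. A common median shifts all genes of an array alike. It moved genes above the 75th percentile to -0.13 too, so the 35 genes stayed 0.17 below them by construction. Quantile normalization can change that gap, and with it the gap was -0.12. With a common median, 31 genes were at least 1.1-fold and 18 at least 1.2-fold lower, Myc turned to -0.011, and the other ribosome biogenesis genes had a median of -0.27. For Q84E over parental it gave -0.27 for the 35 genes, 29 and 19 genes past those limits, 0 genes 1.2-fold higher and -0.27 for the other biogenesis genes. A common 75th percentile gave 13 genes at least 1.2-fold lower for Q84E over wild-type, 10 for Q84E over parental, and 17 genes lower at any size for wild-type over parental. With the mean of all probe sets, 6 genes were at least 1.2-fold lower and 0 higher for Q84E over parental. For wild-type over parental it gave 4 genes at least 1.1-fold and 2 at least 1.2-fold lower, while the median over probe sets gave 4 and 1. That median gave 0 genes 1.2-fold higher for Q84E over parental. Without suffixed probe sets 30 genes had a value, and 2 were 1.2-fold higher for wild-type over parental. No paired analysis was possible because each group is 1 array.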
